A study of Arabidopsis thaliana with 9 samples.

Results

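The transcriptomes of 2 light-signalling mutants of Arabidopsis thaliana, cop1-6 and the cor27cor28 double mutant, were set directly against each other, with all genes considered. The 3 libraries labelled cop1-6 and the 3 labelled cor27cor28 are 6 of 9 libraries, and the other 3 are wild type of the Col_0 strain. Each library was made from RNA of seedlings that were 7 days old, had grown under short days and were collected at ZT20, which is counted in hours from lights-on and lies in the night. The labels give no further treatment for any group, and the age, the day length and the hour of collection are common to all 9 libraries. Of 26984 genes in the files, 17075 reached 1 FPKM in at least 3 libraries and were tested. FPKM is the number of mapped fragments relative to transcript length and to the total of mapped fragments in the library. The labels do not say whether the 3 replicates of a group came from separate growths of plants, so p-values measure the spread between these samples only, which may be technical.

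COP1 is a ubiquitin ligase that, with SPA proteins, sends transcription factors of the light response to the proteasome at night, among them HY5, which turns on light-induced genes. The cop1-6 allele is viable and leaves some COP1 function. COR27 and COR28 are small proteins of the circadian clock that are made in response to cold and light, are themselves removed with the help of COP1, and repress the evening clock genes TOC1 and PRR5. Plants with reduced COP1 behave in the dark partly as if they were lit, with short hypocotyls and open cotyledons. A direct comparison of both genotypes asks which gene programmes separate a plant short of the ligase from a plant short of these substrates.

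COR27 (AT5G42900, chromosome 5, minus strand) was listed at 2.45, 6.71 and 7.46 FPKM in the cop1-6 libraries, at 48.0, 50.1 and 47.9 in the libraries labelled cor27cor28, and at 12.48, 17.35 and 16.21 in wild type. The values therefore did not overlap between groups, and COR27 was highest in the libraries labelled as its mutant. AT4G33980, the locus known as COR28, stood at 0.134, 0.245 and 0.130 FPKM in cop1-6, at 2.49, 1.48 and 2.71 in the libraries labelled cor27cor28 and at 2.73, 1.92 and 3.08 in wild type, so that the labelled double mutant overlapped wild type. The sources used here do not describe the lesions in either gene, and a transcript level outside a lesion does not check a label. Neither gene was below the range of wild type in all 3 libraries that carry its name, so the directions reported here rest on the labels. The level of COP1 was not analysed here.

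GRP7, GRP8 and TOC1, 3 evening genes of the clock, and PORB, a gene of chlorophyll synthesis, differed between the mutants and carry the evening element upstream of their start, so their promoters are shown. The evening element is the sequence AAAATATCT, bound by morning MYB proteins of the clock such as CCA1 and LHY. Windows of 250 bases before the annotated start of each gene were read 5′ to 3′ on the gene's own strand from the RefSeq assembly TAIR10.1, and capitals mark the evening element on either strand. The window of GRP7 is chr2:9266558-9266807 on the minus strand and holds 3 copies, that of GRP8 is chr4:18275217-18275466 on the minus strand, that of TOC1 is chr5:24674713-24674962 on the plus strand and that of PORB is chr4:13725296-13725545 on the plus strand.
GRP7: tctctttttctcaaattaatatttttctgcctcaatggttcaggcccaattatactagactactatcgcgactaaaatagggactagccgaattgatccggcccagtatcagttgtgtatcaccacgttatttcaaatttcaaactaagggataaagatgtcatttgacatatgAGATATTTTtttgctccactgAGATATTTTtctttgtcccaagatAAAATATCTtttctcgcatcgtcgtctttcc
GRP8: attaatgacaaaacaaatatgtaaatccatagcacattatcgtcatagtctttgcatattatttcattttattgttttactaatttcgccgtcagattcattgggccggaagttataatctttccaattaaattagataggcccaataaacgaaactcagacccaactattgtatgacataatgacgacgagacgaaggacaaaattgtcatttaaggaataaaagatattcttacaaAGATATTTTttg
TOC1: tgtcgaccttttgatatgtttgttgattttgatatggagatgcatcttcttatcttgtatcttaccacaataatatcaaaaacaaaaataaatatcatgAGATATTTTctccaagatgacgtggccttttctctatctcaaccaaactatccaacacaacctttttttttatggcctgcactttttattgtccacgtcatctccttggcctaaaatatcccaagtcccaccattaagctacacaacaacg
PORB: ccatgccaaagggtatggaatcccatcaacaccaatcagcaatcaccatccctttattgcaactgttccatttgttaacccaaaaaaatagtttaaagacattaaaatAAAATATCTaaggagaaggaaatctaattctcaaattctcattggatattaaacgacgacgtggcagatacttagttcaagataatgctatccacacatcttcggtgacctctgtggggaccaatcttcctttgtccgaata

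A second set shows the G-box, CACGTG, a core site of HY5 and of PIF proteins, marked in capitals upstream of 3 genes that were far higher in cop1-6. The window of ELIP1 is chr3:8085670-8085919 on the minus strand, that of CHS is chr5:4488226-4488475 on the plus strand and that of LHCB2.3 is chr3:10255656-10255905 on the plus strand.
ELIP1: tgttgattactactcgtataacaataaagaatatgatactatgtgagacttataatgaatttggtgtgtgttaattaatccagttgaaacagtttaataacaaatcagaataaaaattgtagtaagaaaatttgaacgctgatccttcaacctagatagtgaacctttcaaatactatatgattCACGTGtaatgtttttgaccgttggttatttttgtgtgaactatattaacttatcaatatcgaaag
CHS: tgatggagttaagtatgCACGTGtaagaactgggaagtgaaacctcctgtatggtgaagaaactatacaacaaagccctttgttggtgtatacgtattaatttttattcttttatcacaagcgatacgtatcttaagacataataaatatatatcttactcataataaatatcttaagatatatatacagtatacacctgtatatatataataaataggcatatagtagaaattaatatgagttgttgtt
LHCB2.3: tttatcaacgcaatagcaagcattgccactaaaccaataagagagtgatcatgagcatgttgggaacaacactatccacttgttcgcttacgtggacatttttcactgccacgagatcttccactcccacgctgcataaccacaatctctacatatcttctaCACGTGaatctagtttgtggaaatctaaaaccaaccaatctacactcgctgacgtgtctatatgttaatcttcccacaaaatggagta

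The summed FPKM ran from 515929 to 532655 in cop1-6, from 548055 to 562621 in the libraries labelled cor27cor28 and from 584878 to 612462 in wild type. The read depth behind these values is unknown, so no counting interval can be given. The first principal component of the 6 mutant libraries held 76.6% of their variance and separated the genotypes, and Pearson's r across genes was 0.978 to 0.991 within a group and 0.943 to 0.950 between both mutants. The third cop1-6 library stood apart, with 406 genes at least 2-fold above both other cop1-6 libraries, against 48 to 126 genes for each of the other 8 libraries. The median gene was lower in cop1-6 by 0.36 on the log2 scale with the deposited values, by 0.29 after every library was brought to the same total, and by 0.02 after median-of-ratios scaling.

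With the deposited values, limma on log2(FPKM + 1) called 11235 of 17075 genes at an adjusted p under 0.05, 1569 of them higher in cop1-6 (9.19%) and 9666 lower (56.6%). The share of the called genes that was lower in cop1-6 was 86.0% for the FPKM as deposited, 80.5% for equal totals and 42.1% after median-of-ratios scaling, so most lower calls turned on the scale. A gene is therefore named here as called only where it passed in the same direction under all 3 scalings. This held for 1567 genes that were higher in cop1-6 (9.18% of those tested) and 2395 that were lower (14.0%). A different scaling limited each direction. The 1567 were nearly all of the 1569 higher calls of the deposited values. The 2395 were nearly all of the 2397 lower calls after median-of-ratios scaling. Their sizes therefore do not show that more genes were lower than higher. With fold changes on the deposited scale, 379 of the 1567 were at least 2-fold higher and 661 of the 2395 at least 2-fold lower. On that scale 77 and 52 passed 4-fold, and 22 and 9 passed 8-fold. The balance turned with the scale. Among all genes called under a scaling, 380 were at least 2-fold higher and 683 lower with the deposited values. After median-of-ratios scaling 773 were higher and 284 lower. Without the third cop1-6 library, 1383 of the 1567 and all 2395 were still called with the deposited values. That scale favours lower calls, so the check was mild for the 2395 and stricter for the 1567. The numbers kept are therefore not comparable between the directions. A difference is the log2 fold change of FPKM + 1, cop1-6 minus cor27cor28, with its standard error (SE) and an adjusted p from limma over all tested genes. The added 1 understates the change of genes near or below 1 FPKM. Differences are on the deposited scale unless another is named, for genes that passed and genes that did not. Median-of-ratios scaling shifts them upward, for TOC1 from -1.48 to -1.11 and for CHS from 2.72 to 3.12.

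**Figure D1:**
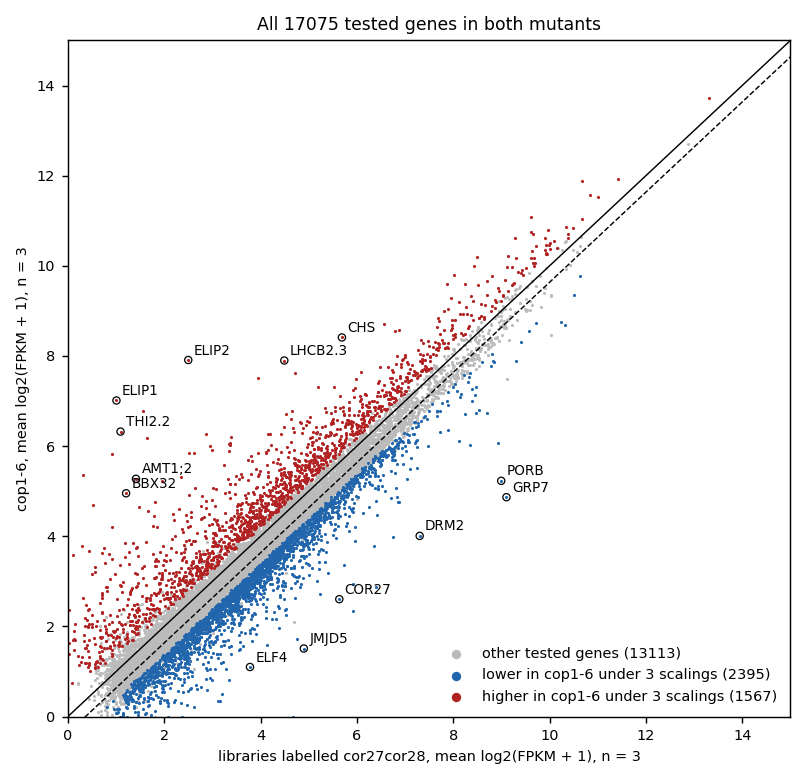
Mean log2(FPKM + 1) of each tested gene over the 3 cop1-6 libraries (vertical axis) against the 3 libraries labelled cor27cor28 (horizontal axis), with the 1567 genes called higher and the 2395 called lower in cop1-6 under 3 scalings in colour. The solid line marks equality and the dashed line the median difference of -0.36, and ELIP1, ELIP2 and THI2.2 lie far above them, GRP7, PORB and JMJD5 far below.

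The programmes fell into a few blocks. Flavonol, antenna, Calvin cycle, carotenoid and morning clock genes were mostly higher in cop1-6, whereas evening clock, auxin synthesis and transport, shade, expansin and root genes were mostly lower. The list medians ran from -1.29 for the evening clock genes to 0.92 for the flavonol genes, beside -0.36 for all tested genes. This leaves aside the seed markers, at 1.98 with just 3 members tested. A list member that reached 1 FPKM in 1 group alone entered the test through that group, so its call is no support. The lists were put together with results of these data known, so their counts describe the comparison and are read against 9.18% and 14.0%, or against 9.19% and 56.6% where a count is given for the deposited values.

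**Figure D2:**
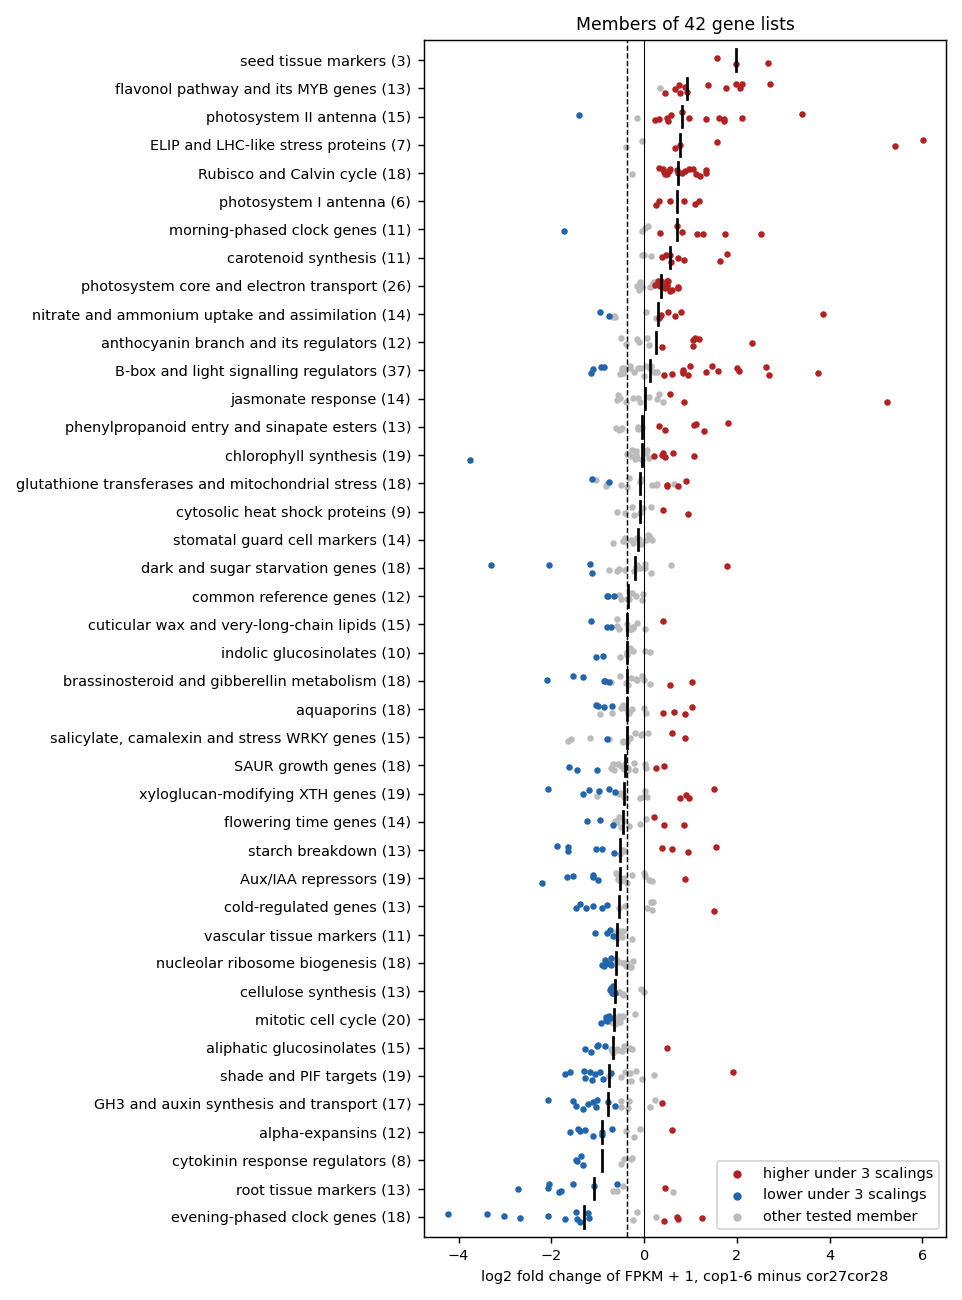
Difference (log2 fold change of FPKM + 1, cop1-6 minus cor27cor28, n = 3 libraries each) of every tested member of 42 gene lists, with the number tested in brackets, the list median as a black bar and the median of all tested genes as a dashed line. Red and blue members were called under 3 scalings, and the list medians include 0.92 for the flavonol genes and -1.29 for the evening clock genes. The bar of the seed markers covers just the 3 of 15 members that were tested.

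Evening-phased clock genes had a median of -1.29 with the deposited values, beside -1.09 for the root markers, and the order of these lists turned with a pseudocount of 0.1, at -1.55 and -2.19. Of 18 tested, 11 were called lower in cop1-6 and 4 higher. The 11 and the median include COR27 and AT4G33980, the genes that the label of the double mutant names. GRP7, an RNA-binding protein of a clock output loop, stood at 25.1, 29.9 and 29.8 FPKM in cop1-6 and at 609, 508 and 536 in the libraries labelled cor27cor28, a difference of -4.24 ± 0.09 (adjusted p = 1.48e-11). Wild type, at 143, 144 and 146, lay between them, 2.31 above cop1-6 and 1.92 below cor27cor28 on the log2 scale. GRP8, its close relative with 1 evening element in its window, went the other way, with 59.5, 63.0 and 60.4 FPKM in cop1-6 against 38.7, 36.5 and 36.3 (0.70 ± 0.07, adjusted p = 8.96e-06). JMJD5, a histone demethylase-like protein of the clock, was at 1.65, 2.21 and 1.71 FPKM against 30.4, 30.7 and 25.6 (-3.39 ± 0.13, adjusted p = 3.27e-09). For COR27 itself, described above, the difference was -3.03 ± 0.26 (adjusted p = 2.30e-06), and for AT4G33980 it was -1.44 ± 0.19 (adjusted p = 5.35e-05).

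Among the core evening regulators, TOC1, a repressor of morning genes, was at 7.4, 9.47 and 7.20 FPKM in cop1-6 and at 26.8, 22.5 and 22.9 in the libraries labelled cor27cor28 (-1.48 ± 0.11, adjusted p = 1.00e-06), and wild type at 20, 20 and 23.1 overlapped the latter. PRR5, a repressor of the same family, was at 0.347, 0.418 and 0.736 FPKM against 4.54, 3.55 and 3.65 (-1.71 ± 0.18, adjusted p = 1.19e-05). Its wild-type values of 1.77, 1.07 and 2.17 lay between both mutants. ELF4, a member of the evening complex that represses growth genes at night, was at 0.934, 1.07 and 1.46 FPKM in cop1-6 and at 18.1, 8.66 and 13.1 in the labelled double mutant (-2.68 ± 0.20, adjusted p = 8.23e-07). Wild type stood at 2.31, 2.48 and 2.52, so the double mutant was the group that departed farthest from it for ELF4. The partners of ELF4 split: ELF3 was lower in cop1-6 (-1.21 ± 0.13, adjusted p = 1.24e-05) and BOA, at 0.501, 0.572 and 0.484 FPKM against 5.20, 5.62 and 5.35, was lower by 2.07 ± 0.11 (adjusted p = 4.51e-08), but LUX was higher (0.73 ± 0.10, adjusted p = 8.04e-05). CHE (-1.37) and PRR3 (-1.19) were called lower, and the DOF repressors of flowering CDF2 (0.43) and CDF3 (1.24) higher, while ZTL (0.25) and LKP2 (-0.16), blue-light receptors that target clock proteins for degradation, did not pass. GI and FKF1 stayed under 1 FPKM in all 9 libraries and were not tested.

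Of 11 morning-phased clock genes tested, 7 were called higher in cop1-6 and 1 lower. The LNK coactivators carry the morning MYB signal to their targets. LNK1 stood at 13, 14.1 and 13.6 FPKM in cop1-6 against 1.2, 1.79 and 1.70 in the libraries labelled cor27cor28 (2.51 ± 0.13, adjusted p = 4.30e-08), with wild type at 1.71, 1.23 and 1.57 inside the range of the latter. LNK4 (1.74 ± 0.17), LNK2 (1.27 ± 0.14) and LNK3 (1.13 ± 0.12) were called in the same direction. CCA1, a MYB repressor at dawn, was at 83.7, 71.5 and 75.7 FPKM against 37.8, 47.9 and 44.4 (0.82 ± 0.11, adjusted p = 7.05e-05), and its partner LHY at 218, 211 and 191 against 145, 179 and 164 (0.34 ± 0.10, adjusted p = 0.0107). The lone gene that was lower, RVE2, a MYB gene of the same family, was at 103, 122 and 94.4 FPKM in cop1-6 and at 351, 362 and 344 in the labelled double mutant (-1.72 ± 0.09, adjusted p = 4.18e-08). RVE1 (0.08), RVE4 (-0.04) and RVE8 (0.02) did not pass.

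**Figure D3:**
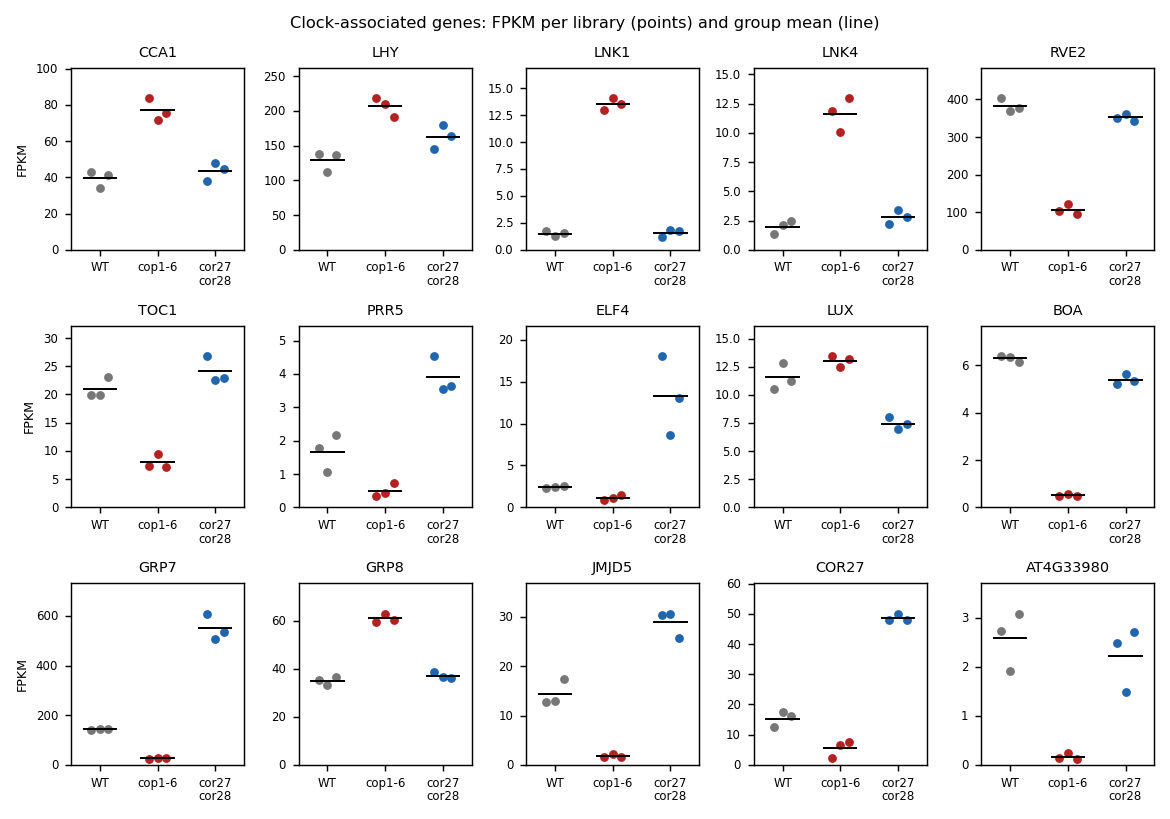
FPKM of 15 clock-associated genes in each library (points) and the mean of each group of 3 (line), for wild type, cop1-6 and the libraries labelled cor27cor28. GRP7, COR27, JMJD5 and ELF4 are highest in the labelled double mutant and lowest in cop1-6, whereas LNK1, LNK4 and CCA1 are highest in cop1-6.

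The 250-base windows of 17064 tested genes were searched on both strands for 8 motifs, none of which contains another, although matches can overlap in part: the G-box CACGTG, the evening element AAAATATCT, the CCA1 site AAAAATCT, the I-box GATAAG, the telo-box AAACCCTAA, the DRE core GCCGAC, the auxin response element TGTCTC and site II TGGGCC. The evening element was found in 2.47% of all windows, in 2.49% of the 1567 windows of genes called higher in cop1-6, in 4.26% of the 2394 of genes called lower, in 5 of the 77 windows (6.49%) of genes at least 4-fold higher and in 7 of the 52 windows (13.5%) of genes at least 4-fold lower, among the latter those of GRP7, PORB, CCL, BOA, AT4G16146 and AT4G30660. It was present in 7 of the 18 evening clock genes (38.9%), among which TOC1, PRR5, BOA and GRP7 were lower in cop1-6 while LUX and GRP8 were higher. The G-box was found in 7.44% of all windows, in 10.8% of those of genes called higher and in 6.73% of those called lower. It was in 13 of the 77 windows (16.9%) of genes at least 4-fold higher, among them ELIP1, LHCB2.3, CHS, CHIL, BBX30 and FRO6. In genes at least 4-fold lower it was in 2 of the 52 windows (3.85%). ELIP2 and BBX32, also at least 4-fold higher, had no G-box in their windows. In genes called higher and lower, respectively, the CCA1 site was in 7.4% and 7.77% of windows (6.89% of all), the I-box in 14.1% and 12.7% (12.5%), the telo-box in 0.957% and 1.8% (2.13%), the DRE core in 3.06% and 3.09% (2.88%), the auxin response element in 11.4% and 10.7% (10.5%) and site II in 13.7% and 15% (17.7%). A match describes letters in a window and shows no binding.

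Among genes called higher in cop1-6, the largest differences at a mean of 10 FPKM or more lay in the early light-induced proteins, which bind pigments in thylakoids under strong light. ELIP1 was at 137, 138 and 111 FPKM in cop1-6 and at 1.16, 0.851 and 1.03 in the libraries labelled cor27cor28 (6.00 ± 0.15, adjusted p = 7.06e-11). ELIP2 was at 248, 227 and 244 against 5.46, 4.18 and 4.38 (5.41 ± 0.10, adjusted p = 8.87e-12). Wild type stood at 1.07, 0.640 and 0.430 for ELIP1 and at 2.68, 2.19 and 2.19 for ELIP2, so the labelled double mutant was within 0.25 and 0.76 of it on the log2 scale. PSBS, the sensor of excess light in photosystem II, stood at 1126, 980 and 952 FPKM in cop1-6 against 365, 348 and 319 (1.56 ± 0.08, adjusted p = 4.51e-08), with wild type at 616, 593 and 580 between both mutants. The one-helix protein genes OHP (0.77) and OHP2 (0.67) were also called higher. LIL3.1 (-0.04 on the deposited scale, 0.36 with median-of-ratios scaling) and LIL3.2 (-0.39 and 0.00) changed with the scale, so 5 of 7 members were called higher and 0 lower.

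Antenna genes were higher in cop1-6 than in the labelled double mutant. All 6 genes of the photosystem I antenna and 13 of 15 of the photosystem II antenna were called higher in cop1-6, with list medians of 0.71 and 0.82, while against wild type the medians were -0.17 and -0.39 for cop1-6 and -0.89 and -1.0 for cor27cor28 with the deposited values. After median-of-ratios scaling they were 0.09 and -0.13 for cop1-6, so the sign for photosystem I turned, and -1.03 and -1.14 for cor27cor28. LHCA1, a photosystem I antenna protein, was at 537, 553 and 445 FPKM in cop1-6 and at 218, 225 and 231 in the libraries labelled cor27cor28 (1.18 ± 0.09, adjusted p = 7.89e-07), and cop1-6 overlapped wild type at 536, 503 and 476. LHCA4 differed by 0.86 ± 0.08 and LHCA2 by 0.25 ± 0.08.

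LHCB2.3, a gene of the mobile photosystem II antenna, gave the largest antenna difference, with 265, 271 and 187 FPKM in cop1-6, 22.1, 19.7 and 22.8 in the labelled double mutant and 116, 114 and 89.4 in wild type (3.41 ± 0.14, adjusted p = 4.88e-09). No value overlapped between any groups for LHCB2.3. Its relatives LHCB2.1 (1.72 ± 0.09) and LHCB2.2 (1.73 ± 0.08) and the less abundant LHCB4.3 (2.1 ± 0.17) and LHCB7 (1.62 ± 0.13) were higher as well. LHCB1.4 was the exception, at 80.9, 74.5 and 80.3 FPKM in cop1-6 against 214, 216 and 198 (-1.40 ± 0.09, adjusted p = 1.90e-07), and the most abundant member, LHCB1.3, did not pass (-0.16, adjusted p = 0.274). Genes of the LHCB1 and LHCB2 groups are near-identical copies whose fragments can be shared between them, so the split among copies is uncertain.

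Of 26 tested genes for photosystem core subunits and electron carriers, 18 were called higher in cop1-6 and 0 lower, with a median of 0.36. PSAL, a photosystem I subunit, stood at 1395, 1464 and 1280 FPKM against 848, 794 and 869 (0.72 ± 0.08, adjusted p = 1.87e-05), and PSAD2 differed by 0.72 ± 0.08. PSAE2 (-0.10), PSBQ2 (-0.16) and the plastocyanin gene PETE1 (-0.12) were among the 8 that did not pass in the same direction. For Rubisco and the Calvin cycle, which fix carbon dioxide, 17 of 18 were called higher, with a median of 0.72. RCA, the Rubisco activase, was at 4287, 3468 and 3652 FPKM in cop1-6, at 1628, 1665 and 1632 in the libraries labelled cor27cor28 and at 2202, 2008 and 2196 in wild type (1.21 ± 0.09, adjusted p = 1.11e-06), with no overlap between groups. FBA1 (1.34 ± 0.09) and FBA2 (1.12 ± 0.09), plastid aldolases, CP12-2 (1.34 ± 0.10), a redox linker of the cycle, and SBPASE (0.96 ± 0.08) followed. The small subunit genes RBCS1A (0.40), RBCS1B (0.44), RBCS2B (0.73) and RBCS3B (1.05), also near-identical copies, were all called higher, whereas CP12-1 was lower with the deposited values (-0.26) and higher with median-of-ratios scaling (0.14).

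Chlorophyll synthesis held 1 of the strongest opposite differences. PORB, a light-driven protochlorophyllide reductase of greening seedlings, stood at 36.1, 37.6 and 35.9 FPKM in cop1-6 and at 526, 490 and 514 in the libraries labelled cor27cor28 (-3.77 ± 0.06, adjusted p = 3.79e-12), with wild type at 647, 663 and 647 above both. PORA, of the same family, was under 1 FPKM in all libraries and was not tested. Of 19 tested genes of the pathway, PORB alone was called lower, and 6 were called higher. These 6 included CHLH (1.08 ± 0.08), the large subunit of magnesium chelatase, its activator GUN4 (0.41 ± 0.07) and HEMA1 (0.62 ± 0.07), the first committed enzyme of tetrapyrrole synthesis. The list median was -0.04 on the deposited scale and 0.35 with median-of-ratios scaling. In carotenoid synthesis, 8 of 11 were called higher and 0 lower, led by ABA1, the zeaxanthin epoxidase, at 176, 148 and 148 FPKM against 40.2, 49.5 and 45.6 (1.78 ± 0.10, adjusted p = 4.75e-08), with wild type at 45.6, 41.1 and 46.6. CCD4, which cleaves carotenoids, differed by 1.63 ± 0.15 and the cyclase LYC by 0.87 ± 0.08.

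**Figure D4:**
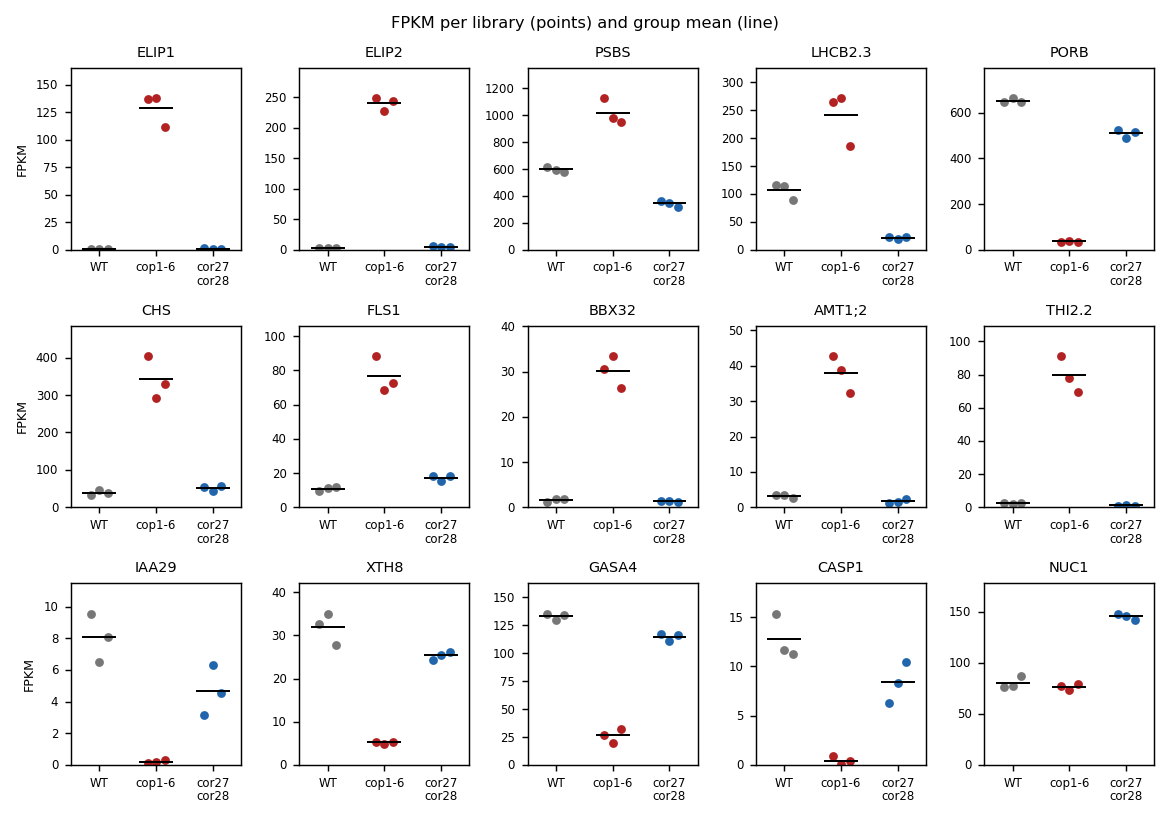
FPKM of 15 genes from the programmes that separate the mutants, in each library (points) and as the mean of each group of 3 (line), for wild type, cop1-6 and the libraries labelled cor27cor28. ELIP1, ELIP2, CHS, FLS1 and BBX32 are far higher in cop1-6 than in both other groups, PORB, XTH8 and GASA4 far lower, and NUC1 is highest in the labelled double mutant.

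Flavonols are phenolic sunscreens made from phenylalanine, and 12 of 13 tested genes of their pathway were called higher in cop1-6, with a median of 0.92 and 0 lower. CHS, chalcone synthase, the entry enzyme, was at 404, 292 and 331 FPKM in cop1-6 and at 53.9, 42.5 and 56.3 in the libraries labelled cor27cor28 (2.72 ± 0.15, adjusted p = 4.71e-08). Wild type, at 32.3, 46.2 and 37.4, overlapped the labelled double mutant. CHIL (2.12 ± 0.08), a helper of chalcone isomerase, FLS1 (2.07 ± 0.11), flavonol synthase, and F3H (1.99 ± 0.15), flavanone hydroxylase, followed, as did AT1G06000, annotated as a flavonol rhamnosyltransferase (1.75 ± 0.11). MYB111, a MYB activator of the pathway, differed by 0.66 ± 0.12. Its relative MYB12 was listed at 1.41, 1.05 and 0.912 FPKM in cop1-6 and at 0.110, 0.109 and 0.392 in the labelled double mutant, too low to be tested. UGT84A1 was the tested member that did not pass (0.33, adjusted p = 0.0899).

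The anthocyanin branch was less even. Of 12 tested genes, 6 were called higher and 0 lower in the same direction under 3 scalings, and the median was 0.25. TT19, a glutathione transferase that carries anthocyanins to the vacuole, was at 12.6, 16.1 and 9.06 FPKM in cop1-6 against 1.77, 1.28 and 1.95 (2.32 ± 0.20, adjusted p = 2.02e-06). DFR, which opens the branch, was at 6.66, 11.8 and 4.80 against 2.70, 3.27 and 2.60 (1.1 ± 0.24, adjusted p = 0.00183), and LDOX (1.06 ± 0.21), 5MAT (1.04 ± 0.20) and AT4G14090, an anthocyanidin glucosyltransferase (1.19 ± 0.22), were similar in size. 5MAT was at 0.541 to 0.560 FPKM in wild type and at 0.412 to 0.549 in the libraries labelled cor27cor28. It passed the filter of 1 FPKM through cop1-6 alone, so its call is no count in support. Within cop1-6 the second library was the highest and the third the lowest for DFR, LDOX, 5MAT and TT19. With the deposited values, the 6 genes of this list called higher became 5 without the first or the second cop1-6 library and 4 without the third. Without any 1 of these libraries 5MAT missed the filter and was not tested. The regulators TTG1 (0.11), LBD37 (-0.11), LBD38 (-0.14) and LBD39 (0.07) did not pass, and the MYB activator PAP2 was listed below 0.35 FPKM in every library.

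At the entry to phenylpropanoids and in sinapate esters, 6 of 13 were called higher and 0 lower. BRT1, a sinapate glucosyltransferase for ultraviolet shielding, differed by 1.3 ± 0.09, and 4CL3, the coenzyme A ligase that feeds flavonoids, stood at 29.3, 26.2 and 25.6 FPKM against 6.91, 6.22 and 7.82 (1.81 ± 0.13, adjusted p = 4.64e-07). PAL1 (1.12 ± 0.11) and PAL2 (1.07 ± 0.08), the ammonia-lyases of the first step, were higher in the same way. The ligases linked to lignin, 4CL1 (-0.13) and 4CL2 (-0.55), and FAH1 (-0.50) were not called under all scalings.

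Regulators of light signalling moved in both directions. Of 37 tested, 15 were called higher in cop1-6 and 4 lower. HY5 itself did not pass, with 10.7, 8.99 and 9.93 FPKM in cop1-6 and 9.39, 13.1 and 10.4 in the libraries labelled cor27cor28 (-0.13 ± 0.13, adjusted p = 0.403), and the groups overlapped. HYH, its homologue, did not pass either (0.28, adjusted p = 0.0567). BBX32, a B-box repressor of light responses, was at 30.5, 33.5 and 26.4 FPKM against 1.35, 1.43 and 1.15 (3.75 ± 0.13, adjusted p = 1.59e-09), with wild type at 1.23, 1.77 and 1.8. BBX30 (2.64 ± 0.19), BBX31 (2.04 ± 0.14), BBX29 (1.60 ± 0.15), BBX28 (1.33 ± 0.11) and BBX24 (1.46 ± 0.08) were higher in cop1-6 as well, but the B-box activators BBX21 (-1.10 ± 0.10) and BBX20 (-1.15 ± 0.13) were lower. BBX31 was at 0.413 to 0.770 FPKM in wild type and at 0.562 to 0.711 in the libraries labelled cor27cor28. It passed the filter of 1 FPKM through cop1-6 alone, so its call is no count in support. RUP2 and RUP1, which switch off the ultraviolet receptor UVR8, differed by 2.69 ± 0.12 and 2.0 ± 0.11. Of the COP1 partners, SPA4 (0.83) and SPA3 (0.42) were called higher, and SPA1 (0.15) and SPA2 (-0.01) did not pass. PHYA, the far-red photoreceptor, was lower in cop1-6 at 20.12, 19.2 and 22.2 FPKM against 37.5, 40.6 and 36.8 (-0.87 ± 0.09, adjusted p = 9.49e-06). Among the growth-promoting PIF factors, PIF3 was lower (-0.94), PIF5 (0.61) and PIF7 (0.83) were higher, and PIF4 did not pass, at 1.47, 1.52 and 1.88 FPKM against 1.17, 2.25 and 1.39 (0.03 ± 0.16, adjusted p = 0.873), both mutants lying below its wild-type values of 4.11, 3.94 and 3.63.

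Growth programmes differed in how many members were called. Of 19 Aux/IAA repressors, which auxin induces, 13 were lower with the deposited values and 6 under all scalings, with 1 higher, and the median moved from -0.53 to -0.14 with median-of-ratios scaling. IAA29 stood at 0.0925, 0.177 and 0.320 FPKM in cop1-6, at 3.169, 6.30 and 4.53 in the libraries labelled cor27cor28 and at 9.56, 6.48 and 8.10 in wild type (-2.21 ± 0.20, adjusted p = 3.18e-06). IAA19 (-1.53 ± 0.20), IAA7 (-1.11 ± 0.14) and IAA3 (-1.10 ± 0.13) were lower too, and IAA14 was the member that was higher (0.87 ± 0.15). Of 17 genes for auxin conjugation, synthesis and transport, 10 were called lower and 1 higher. GH3.3, an auxin-conjugating enzyme, was at 2.33, 3.28 and 2.19 FPKM against 11.7, 24.1 and 9.58 (-2.07 ± 0.26, adjusted p = 3.90e-05), and the double mutant was above the wild-type values of 4.51, 5.28 and 3.97. The synthesis gene TAA1 (-1.46 ± 0.17) and the efflux carriers PIN7 (-1.53 ± 0.12), PIN3 (-0.78 ± 0.08) and ABCB19 (-1.03 ± 0.08) were lower in cop1-6.

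SAUR genes, short auxin-induced growth genes, were the least clear of the growth lists. Of 18 tested, 3 were called lower under all scalings and 2 higher, and the 10 lower with the deposited values became 5 without the second cor27cor28 library. SAUR19 (-1.63 ± 0.29), SAUR22 (-1.44 ± 0.27) and SAUR24 (-1.02 ± 0.21) were lower in cop1-6, and SAUR14 (0.27) and SAUR16 (0.43) were higher. Neither was called higher without the second cop1-6 library, the first cor27cor28 library or the third cor27cor28 library. These genes are close copies, so their separate values are uncertain, and the list stood below wild type in both mutants, with medians of -1.13 in cop1-6 and -0.70 in cor27cor28 (-0.91 and -0.81 after median-of-ratios scaling).

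Shade and PIF target genes were called lower in 10 of 19 cases and higher in 1. ATHB2, a homeodomain gene induced by shade, was at 2.84, 2.05 and 3.27 FPKM against 10.2, 13.1 and 10 (-1.71 ± 0.16, adjusted p = 4.94e-06), and wild type at 13.5, 9.27 and 11.2 overlapped the labelled double mutant. PIL1 (-1.17 ± 0.14), HAT3 (-0.96 ± 0.11) and FHL (-1.13 ± 0.18), a nuclear importer of phytochrome A, were lower as well. HFR1 did not pass (-0.04), with both mutants below wild type. The member that was higher was SQE3, a squalene epoxidase of sterol synthesis (1.93 ± 0.09).

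Cell wall genes followed. Expansins, which loosen walls, were called lower in 8 of 12 cases and higher in 1. EXPA8 stood at 11.8, 12.9 and 11.3 FPKM in cop1-6, at 28.9, 44.1 and 44.1 in the libraries labelled cor27cor28 and at 69.5, 83.5 and 62.4 in wild type (-1.60 ± 0.15, adjusted p = 5.23e-06), so that no groups overlapped. EXPA16 (-1.42 ± 0.14), EXPA3 (-1.38 ± 0.08) and EXPA11 (-1.28 ± 0.11) were lower, and the abundant EXPA1 was lower with the deposited values (-0.21) but higher with median-of-ratios scaling (0.19). Of the xyloglucan-modifying XTH genes, 6 of 19 were called lower and 4 higher. XTH8 was at 5.33, 4.96 and 5.39 FPKM against 24.4, 25.5 and 26.2 (-2.08 ± 0.10, adjusted p = 1.30e-08) and XTH4 differed by -1.33 ± 0.09, whereas XTH6 was higher by 1.5 ± 0.15 and XTH27 by 0.89 ± 0.07. In cellulose synthesis 7 of 13 were called lower and 0 higher, with CESA1 at 53.8, 52.7 and 51.0 against 81.9, 87.5 and 84.1 FPKM (-0.68 ± 0.08, adjusted p = 1.84e-05).

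In brassinosteroid and gibberellin metabolism 6 of 18 were called lower and 2 higher. GASA4, a gibberellin-regulated peptide gene, was at 26.8, 20 and 32.4 FPKM in cop1-6 against 117, 111 and 116 (-2.11 ± 0.13, adjusted p = 1.30e-07), GASA6 differed by -1.54 ± 0.11, and the DELLA growth repressors RGL1 (-1.33 ± 0.12) and GAI (-0.88 ± 0.10) were lower, while RGA did not pass (0.00 after rounding). The brassinosteroid synthesis genes CPD (-0.76 ± 0.08) and DWF4 (-0.84 ± 0.11) were lower. Aquaporins were divided, with 4 of 18 called lower and 4 higher. PIP2;8 (-1.04 ± 0.12) and PIP2;2 (-0.99 ± 0.09) stood at the low end and PIP1;1 (1.04 ± 0.09) and PIP2;3 (0.87 ± 0.09) at the high end.

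Genes of ribosome biogenesis were lower in cop1-6 than in the labelled double mutant where they were called. Of 18 nucleolar genes, 16 were lower in cop1-6 with the deposited values and 7 under all scalings, with 0 higher, beside 56.6% and 14.0% of all tested genes. The median was -0.61, and -0.24 with median-of-ratios scaling. Against wild type the list median was 0.12 in cop1-6 and 0.72 in cor27cor28, and 0.37 and 0.59 after that scaling. NUC1, nucleolin, which organises ribosomal RNA genes, was at 77.0, 73.1 and 79.6 FPKM in cop1-6, at 148, 146 and 142 in the libraries labelled cor27cor28 and at 76.4, 77.1 and 86.7 in wild type (-0.92 ± 0.07, adjusted p = 1.17e-06). FIB2 (-0.85 ± 0.10), a methyltransferase guided by small nucleolar RNAs, and CBF5 (-0.73 ± 0.08), the pseudouridine synthase, were lower in cop1-6. Site II, TGGGCC, was in 11 of the 18 windows (61.1%), beside 17.7% of all windows.

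Of 20 genes of mitosis and replication, 19 were lower with the deposited values, where 56.6% of all tested genes were, and 8 under all scalings, and 0 were higher. Their median was -0.66, and -0.34 with median-of-ratios scaling. CYCB1;1, a mitotic cyclin, was at 2.55, 3.07 and 1.57 FPKM in cop1-6 against 5.16, 5.51 and 5.45 (-0.93 ± 0.16, adjusted p = 0.000428), and PCNA1, the replication clamp, at 9.21, 10 and 8.94 against 16.1, 16.4 and 17.3 (-0.76 ± 0.09, adjusted p = 2.85e-05). Neither gene overlapped between the mutants. Type-A response regulators, which cytokinin induces and which dampen its signal, were called lower in 4 of 8 cases and higher in 0. ARR7 was at 7.29, 5.47 and 6.63 FPKM against 18.9, 19.4 and 20.5 (-1.47 ± 0.11, adjusted p = 6.79e-07), and ARR16 (-1.44 ± 0.18), ARR5 (-1.35 ± 0.14) and ARR6 (-1.32 ± 0.14) were similar.

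Starch breakdown, the source of sugar at night, was split within the pathway. Of 13 tested, 6 were called lower in cop1-6 and 4 higher. PHS2, the cytosolic phosphorylase, was at 5.35, 4.48 and 5.62 FPKM against 23.0, 21.0 and 20.3 (-1.87 ± 0.11, adjusted p = 8.89e-08), and the glucan-processing enzymes DPE1 (-1.64 ± 0.09), DPE2 (-1.03 ± 0.09) and ISA3 (-1.65 ± 0.13) were lower. ISA3 stood at 3.42, 3.27 and 3.70 FPKM in cop1-6 and 11.6, 14.6 and 13 in the labelled double mutant, with wild type at 3.49, 4.85 and 3.61, near cop1-6. In contrast BAM9, a beta-amylase relative, was at 212, 198 and 190 FPKM against 69.1, 67.0 and 65.8 (1.56 ± 0.07, adjusted p = 1.12e-08), and BAM3 was higher by 0.95 ± 0.11. Among 18 genes of darkness and sugar starvation 4 were called lower and 1 higher. DRM2, a dormancy-associated gene, was at 13.7, 18.6 and 13.5 FPKM in cop1-6 against 187, 159 and 129 (-3.29 ± 0.14, adjusted p = 6.05e-09), DRM1 differed by -2.05 ± 0.15, and DIN9 was the member that was higher (1.79 ± 0.14). The asparagine synthetase gene DIN6 did not pass (0.02).

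Nitrogen uptake and assimilation had 7 of 14 genes called higher in cop1-6 and 2 lower. AMT1;2, an ammonium transporter, stood at 42.8, 38.8 and 32.3 FPKM in cop1-6, at 1.23, 1.48 and 2.41 in the libraries labelled cor27cor28 and at 3.42, 3.53 and 2.70 in wild type (3.86 ± 0.16, adjusted p = 5.90e-09). GLU1, the ferredoxin-dependent glutamate synthase of leaves, was higher (0.80 ± 0.11), whereas GLT1, the NADH-dependent form, was lower (-0.76 ± 0.11). The same held for cytosolic glutamine synthetases, with GLN1;2 higher (0.52 ± 0.08) and GLN1;3 lower (-0.95 ± 0.09).

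Cold-regulated genes were called lower in 6 of 13 cases and higher in 1. COR47, a dehydrin, was at 19.9, 22.1 and 20.6 FPKM in cop1-6 against 53.3, 58.9 and 56.9 (-1.39 ± 0.07, adjusted p = 4.18e-08), and ERD10 (-1.26 ± 0.09), COR6.6 (-1.48 ± 0.18) and the desaturase ADS2 (-1.11 ± 0.08) were lower. GOLS1, a galactinol synthase, was higher (1.51 ± 0.13). CBF1 and CBF3, regulators of the cold response, were listed under 0.3 FPKM in every library, and CBF2 did not pass (-0.41, adjusted p = 0.133). Of 14 flowering genes 3 were called higher and 3 lower. SOC1, a floral integrator, was at 9.91, 8.82 and 11.1 FPKM against 3.64, 6.16 and 5.62 (0.85 ± 0.16, adjusted p = 0.000619). The floral repressor SVP (-0.67 ± 0.09), the photoperiod regulator CO (-0.95 ± 0.15) and SPL3 (-1.23 ± 0.14) were lower. FLC, a repressor of flowering, did not pass (-0.10), with 1.58 to 2.69 FPKM over both mutants against 5.62 to 7.6 in wild type. FT, the mobile floral signal, was listed at 0.735, 0.507 and 0.335 FPKM in cop1-6 and at 0 in all 3 libraries of the labelled double mutant, below the level at which genes were tested.

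Glucosinolates are sulfur-rich defence compounds. Of 15 genes of the methionine-derived class 5 were called lower in cop1-6 and 1 higher, with MYB28, their main regulator, at 20.9, 18.9 and 19.8 FPKM against 32.3, 37.0 and 39.8 (-0.84 ± 0.09, adjusted p = 1.38e-05), and CYP79F2 (-1.27 ± 0.15) and MAM1 (-1.14 ± 0.16) lower. Of 10 genes of the tryptophan-derived class 2 were called lower, CYP79B3 (-1.04 ± 0.11) and MYB51 (-0.89 ± 0.17). In wax and very-long-chain lipid synthesis 3 of 15 were called lower, led by KCS8 (-1.15 ± 0.10), and CER3 was higher (0.41 ± 0.08).

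Stress and defence genes depended on the third cop1-6 library. For 15 tested salicylate, camalexin and WRKY genes the median level relative to each gene's mean was -0.45 and -0.43 in the first and second cop1-6 libraries but 0.69 in the third, beside 0.30, 0.18 and 0.27 in the libraries labelled cor27cor28. With the deposited values 4 of 15 were lower in cop1-6 and 2 higher; without that library 10 were lower and 2 higher, and without the first or the second cop1-6 library 1 was lower. WRKY33, a defence regulator, was at 6.2, 5.97 and 15.7 FPKM in cop1-6 and 10.2, 7.81 and 8.42 in the labelled double mutant (-0.05 ± 0.27, adjusted p = 0.875). AZI1, a lipid transfer protein of systemic defence, was at 274, 147 and 1076 FPKM against 1014, 1111 and 1031, and EARLI1 at 132, 60.7 and 709 against 514, 602 and 560. Under all 3 scalings EDS1 was called lower (-0.80 ± 0.12) and PR5 (0.60 ± 0.12) and ZAT10 (0.87 ± 0.26) higher.

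The same library stood out for 18 genes of glutathione transferases and mitochondrial stress, at 0.66 against 0.10 and -0.41 in the other cop1-6 libraries. In this list 4 were called higher and 2 lower under all scalings. With the deposited values 7 were lower, which became 10 without the third cop1-6 library and 4 without the second. GSTF6 was at 54.4, 39.0 and 349.9 FPKM in cop1-6 against 83.8, 77.9 and 64.5 in the labelled double mutant, and 13.3, 22.3 and 19.6 in wild type. AOX1A, the alternative oxidase of mitochondria, was at 40.6, 27.9 and 40.4 FPKM against 21.1, 22.9 and 20.08 (0.72 ± 0.16, adjusted p = 0.00193), and GSTF10 was lower (-1.13 ± 0.22). Indolic glucosinolate genes went from 5 lower with the deposited values to 8 without the third cop1-6 library. Of 14 jasmonate genes 3 were called higher and 0 lower, and of 9 cytosolic heat shock genes 2 were called higher and 0 lower, HSP70 (0.94 ± 0.19) and HSP90-1 (0.40 ± 0.11).

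**Figure D5:**
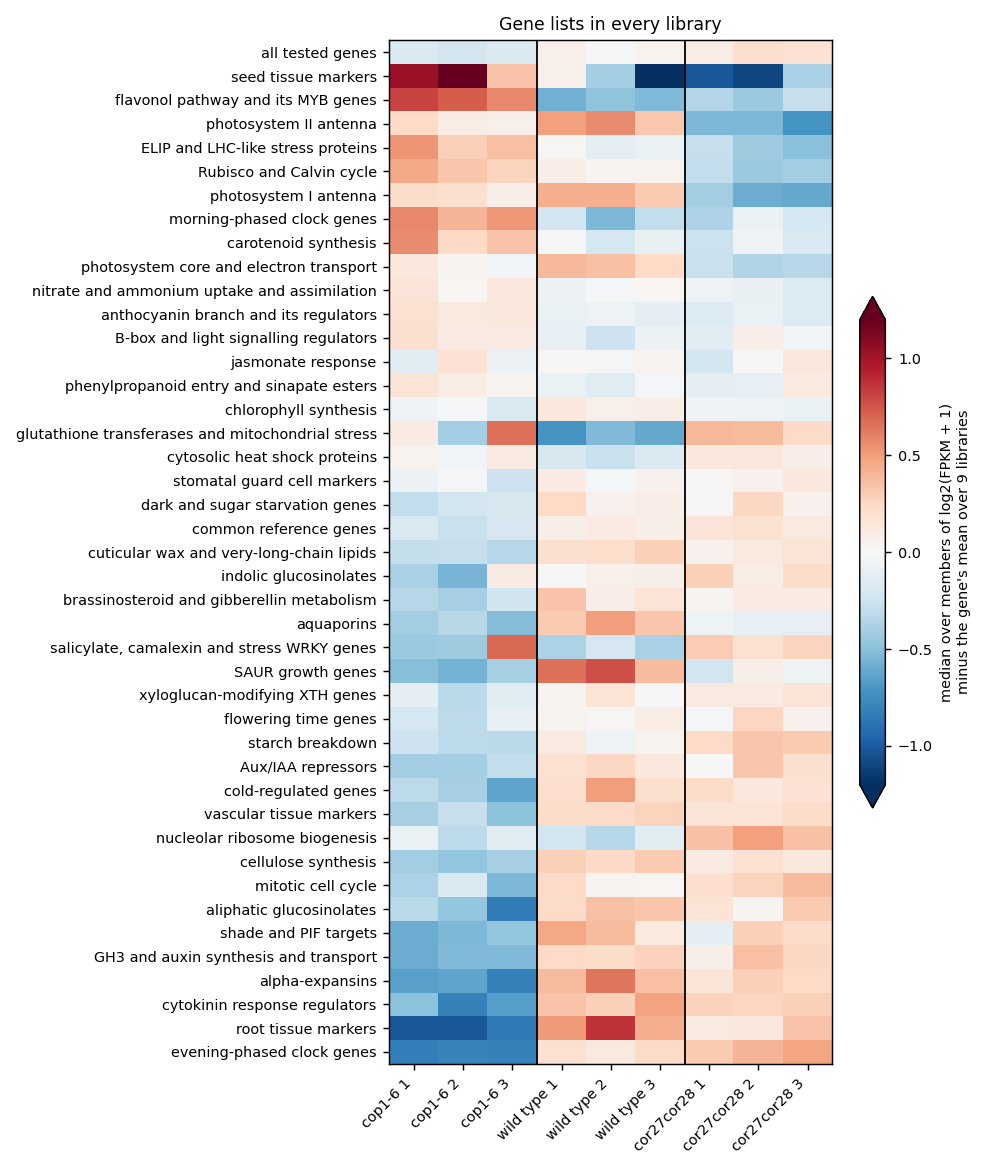
Median over the tested members of each list of log2(FPKM + 1) minus the gene's own mean over 9 libraries (colour), for every library, with the 3 cop1-6 libraries on the left, wild type in the middle and the libraries labelled cor27cor28 on the right. Evening clock genes lie between -0.82 and -0.80 in all 3 cop1-6 libraries, whereas the salicylate list is at 0.69 in the third cop1-6 library alone among them.

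Outside the programmes above, the largest differences at a mean of 10 FPKM or more, among genes with a symbol, concerned single genes. THI2.2, a thionin of the jasmonate list, stood at 91.2, 78.1 and 69.2 FPKM in cop1-6 against 1.05, 1.3 and 1.05 (5.23 ± 0.13, adjusted p = 7.51e-11). SQP1, a squalene monooxygenase gene, was at 129, 112 and 89.1 against 2.63, 1.4 and 1.98 (5.21 ± 0.19, adjusted p = 2.11e-09), and GPX7, a chloroplast glutathione peroxidase, at 28.2, 22.7 and 23.7 against 0.345, 0.581 and 0.371 (4.17 ± 0.16, adjusted p = 2.37e-09). In each case wild type was near the labelled double mutant, at 2.06 to 2.89 FPKM for THI2.2, 2.17 to 3.80 for SQP1 and 0.129 to 0.599 for GPX7. GPX7 thus passed the filter of 1 FPKM through cop1-6 alone, so its call is no support for a difference. NDA1, a mitochondrial NADH dehydrogenase (3.42 ± 0.13), LEA3 (3.33 ± 0.13), ERD9, a glutathione transferase (3.04 ± 0.10), and SIGE, a plastid sigma factor induced by light and stress (2.91 ± 0.08), complete the 12 highest alongside ELIP1, ELIP2, AMT1;2, BBX32 and LHCB2.3.

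On the lower side CCL, a gene that cycles with the clock, was at 61.5, 75.8 and 62.5 FPKM in cop1-6 and at 489, 487 and 489 in the libraries labelled cor27cor28 (-2.86 ± 0.08, adjusted p = 2.14e-10), and wild type, at 490, 487 and 490, was level with the latter. MLP28, of the latex protein family (-2.55 ± 0.09), LTP2, a lipid transfer protein (-2.32 ± 0.19), GRP5 (-2.28 ± 0.18), WLIM2a, an actin-binding protein (-2.16 ± 0.13), RIBA2, of riboflavin synthesis (-2.16 ± 0.12), and WCRKC1, a plastid thioredoxin-like protein (-2.14 ± 0.10), complete the 12 lowest alongside GRP7, PORB, JMJD5, DRM2 and COR27. Only 2 genes were at 1 FPKM or more in all 3 libraries labelled cor27cor28 and listed at 0 in all of cop1-6, and none the other way round. They are CASP5, described with the root genes, and AT1G64795, at 34.5, 12.6 and 33.9 FPKM in the labelled double mutant and at 2.87, 0 and 0 in wild type. AT1G64795 has no symbol and so is not among the 12, although its difference was -4.68. It would not have passed the filter without the libraries labelled cor27cor28, so its call is no support for a difference. AT1G64795 lies opposite ILA on chromosome 1, and whether fragments were counted by strand is not given, so the reads of both cannot be told apart; ILA itself differed by -0.29 with the deposited values.

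Because the RNA came from seedlings and not from sorted cells, fewer cells of a type and less RNA per cell cannot be told apart, and marker genes of organs and cell types are given for that reason. Root markers were lower in cop1-6. Of 19 listed, 13 were tested, 8 were called lower and 1 higher, and their summed level was 52.2 to 60.3 FPKM in cop1-6, 80.5 to 96.1 in the libraries labelled cor27cor28 and 109 to 116 in wild type. CASP1, which builds the Casparian strip of the root endodermis, was at 0.884, 0.0700 and 0.378 FPKM in cop1-6 against 6.33, 8.34 and 10.5 (-2.71 ± 0.21, adjusted p = 1.11e-06), and wild type was at 15.4, 11.7 and 11.2. CASP5 was listed at 0 in all 3 cop1-6 libraries and at 2.71, 2.56 and 4.65 in the labelled double mutant. CASP2 (-2.05), ESB1 (-1.79) and PER64 (-1.84), of the same structure, were lower, and SCR, which specifies the endodermis and is also used in leaves, was higher (0.45).

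Seed markers were low in all libraries. Of 15 listed, CRA1, OLEO1 and OLEO2, which encode storage and oil body proteins, were tested. OLEO1 passed the filter through cop1-6 alone and CRA1 would not have passed without it, so their calls as higher, and that of OLEO2, are no count in support. CRA1 stood at 6.21, 14.0 and 5.75 FPKM in cop1-6 against 0.155, 0.221 and 0.981 (2.68 ± 0.34, adjusted p = 4.61e-05). The summed level was 16.3 to 40.0 FPKM in cop1-6, 1.0 to 5.9 in the libraries labelled cor27cor28 and 0.7 to 5.4 in wild type, highest in the second cop1-6 library, and LEC1 was listed at 0 in all 6 mutant libraries. Without any 1 of the 3 cop1-6 libraries, 2 of the 3 were called. Guard cell markers gave 0 calls under all scalings among 14 tested, and their sums overlapped, at 684 to 972 and 802 to 818 FPKM. Vascular markers gave 4 lower of 11 tested, among them XCP1 (-1.05 ± 0.13), an enzyme of xylem, with sums of 127 to 144 against 204 to 219 FPKM. The part of root, seed and vascular tissue in the other results was not tested. Of 12 common reference genes 3 were called lower in cop1-6, ACT8 (-0.81 ± 0.07), ACT7 (-0.77 ± 0.08) and UBC21 (-0.64 ± 0.10), while UBQ10 (-0.06) and ACT2 (-0.04) did not pass with the deposited values and were higher by 0.34 and 0.36 with median-of-ratios scaling.

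The wild-type libraries place these differences on the deposited scale. On it the median log2 difference from wild type was -0.21 in cop1-6 and 0.1 in cor27cor28. The counts below can therefore change with the scale, and they were not repeated under another scaling. Of the 1567 genes called higher in cop1-6, the 3 wild-type values overlapped the labelled double mutant alone for 769, overlapped cop1-6 alone for 213, lay between both mutants for 257, below both for 189 and above both for 52, and overlapped both or neither in another way for 87. Of the 2395 called lower, they overlapped the labelled double mutant alone for 1223, overlapped cop1-6 alone for 191, lay between both for 567, above both for 392 and below both for 5, with 17 left over. CHS, ELIP1 and TOC1 are examples of the first kind, NUC1 of the second and GRP7 of genes with wild type between both mutants.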

How the data were processed

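RNA of 9 seedling libraries, 3 per group, was extracted with the RNAiso Plus kit and sequenced on an Illumina instrument, per the labels' protocols. The authors deposited 1 table of FPKM values per library. The submitters' processing notes list Trimmomatic 0.36, HISAT2 2.2.1.0, Cufflinks, TopHat, Bowtie2, DESeq 1.18.0 and TAIR10, with no role or order. They do not say which tool made the FPKM values, and the annotation and the use of strand are likewise not given. Such values keep no record of depth, which is unknown.

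In each library 13 lines named no gene, held 0.000197% to 0.00203% of the summed FPKM and were left out. A gene was tested where 3 or more of the 9 libraries reached 1 FPKM, with values taken as log2(FPKM + 1), in limma 3.58.1 (R 4.3.3), with a variance trend, over all 3 groups, and p-values were adjusted by the Benjamini-Hochberg method. The fit was repeated after scaling to equal totals and by median-of-ratios factors, and it was tested on simulated data. Tables and figures were made with Python 3.11.15, pandas 2.3.3, numpy 2.4.6 and matplotlib 3.10.9.

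The comparison and its 42 lists of 729 genes, of which 714 were in the files and 626 were tested, were chosen with earlier results of these data known. Genes named are 13 fixed ones, up to 5 members of each list with the lowest adjusted p among those called alike under 3 scalings, all members of lists of up to 8, members on which a list's direction turns, and the 12 highest and 12 lowest genes with a symbol at a mean of at least 10 FPKM without overlap between the mutants. Other genes named, among them the members that did not pass, GSTF6, AZI1, EARLI1 and the untested genes, were chosen after their values were seen, as were the windows printed and the 8 motifs. Promoter windows and coordinates come from the RefSeq assembly TAIR10.1. The promoter window of 1 further gene is not reported here. Alternatives were pseudocount, filter, libraries fitted, variance trend, replicate block and leaving out each library.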

Additional observations from a re-analysis of the deposited data

How the results depend on the processing

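Of 11235 called genes with the deposited values, 1569 were higher and 9666 lower in cop1-6. After median-of-ratios scaling 5697 were called, 3300 higher and 2397 lower. The scaling factors were 0.839 to 0.874 in cop1-6 and 1.08 to 1.18 in cor27cor28, and the files do not show which scale holds. With a pseudocount of 0.1, the 1063 genes called at 2-fold or more became 1841. Leaving out 1 library at a time gave 9214 to 11409 called genes, 1338 to 1594 higher, 7741 to 9815 lower and 1021 to 1171 at 2-fold or more. LIL3.1 changed sign with median-of-ratios scaling, from -0.04 to 0.36, and LIL3.2 went from -0.39 to 0.00. The replicate block gave 10691 called genes. Same-numbered libraries of both mutants had correlations of -0.069, -0.113 and -0.048 in their deviations from the group means. No shared deviation was thus seen, but whether the numbers mark a shared growth or batch cannot be told from 3 libraries a group. With equal totals 211 of 211 named genes kept direction and call, and 209 did after median-of-ratios scaling. Most were named because they were called alike under 3 scalings, so that choice largely set these counts. They are therefore no check on the scale. Direction and call also held for 211 with a pseudocount of 0.1 and with the 6 mutant libraries alone. The count was 210 with the replicate block and without the variance trend. List members were picked by low adjusted p, which favours agreement under these settings too. SAUR14 was lost under the block, without the trend and without the filter, and LHCA2 was lost without the filter. The depth behind the values is unknown, so precision rests on 3 libraries a group, and genes near or below 1 FPKM are understated.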

Other observations

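Classes of gene products were read from the annotated product names of all tested genes, and members of the lists were not removed. The words were chosen after values were seen, so the classes are described without a test. Their counts are read against all tested genes, of which 9.18% were called higher and 14.0% lower under 3 scalings, with a median of -0.36. Of 28 tested genes with tubulin in the product name, 14 were called lower in cop1-6 under 3 scalings and 2 higher. Their median difference was -0.66. TUB5, a beta-tubulin, was at 27.7, 28.7 and 27.2 FPKM in cop1-6 against 112, 97.2 and 100 in the libraries labelled cor27cor28 (-1.85 ± 0.07, limma adjusted p = 3.33e-09). TUA5, an alpha-tubulin, was at 63.9, 61.4 and 60.2 against 150, 152 and 152 (-1.28 ± 0.06), although close copies in this family make separate values uncertain. No library of one mutant reached the range of the other for either gene. Of 26 IQ-domain genes, whose products bind calmodulin and sit on microtubules, 11 were called lower and 0 higher, among them IQD30 (-0.99 ± 0.11) and IQD31 (-0.70 ± 0.08). Of 35 genes for pectin lyase-like proteins, which act on wall pectin, 18 were called lower and 2 higher, and PMR6 stood at 46.9, 63.6 and 53.2 FPKM against 98.2, 95.8 and 99.0 (-0.84 ± 0.10). Dirigent genes, linked to lignin and lignan coupling, were called lower in 9 of 16 cases and higher in 1, with the largest class median, -1.30. ESB1, given above with the root markers, is among the 9.

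Some classes held genes that were higher in cop1-6. Of 12 fibrillin genes, whose products sit on plastid lipid bodies, 6 were called higher in cop1-6 under 3 scalings and 0 lower. FIB4 was at 118, 132 and 117 FPKM against 74.2, 75.0 and 77.0 (0.69 ± 0.07, limma adjusted p = 1.42e-05). Of 9 FTSH protease genes, which clear damaged membrane proteins, 4 were called higher and 0 lower under 3 scalings, with a median of 0.08. With the deposited values 2 of the 9 were lower. FTSH8 was at 112, 107 and 103 FPKM against 42.3, 40.7 and 37.8 (1.39 ± 0.08, adjusted p = 4.64e-08), and FTSH1 differed by 0.72 ± 0.07. Of 97 genes for Rossmann-fold proteins, a broad class, 26 were called higher and 4 lower, with a median of -0.07. With the deposited values 26 of the 97 were higher and 35 lower, beside 9.19% and 56.6% of all tested genes. HCF244, a member and a factor in the assembly of photosystem II, was at 159, 133 and 136 FPKM in cop1-6 against 71.1, 72.1 and 70.7 (0.99 ± 0.08, adjusted p = 1.98e-06), so the mutants did not overlap for any of these genes.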
